A study of Mus musculus with 39 samples.

Results

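Oxidative phosphorylation is carried out in the inner mitochondrial membrane by 5 protein complexes. Complexes I, III and IV pass electrons from NADH to oxygen by way of cytochrome c and pump protons, complex II feeds electrons in from succinate, and complex V (ATP synthase) uses the proton gradient to make ATP. The neurons of the inferior colliculus, the auditory midbrain, fire at high rates, and the colliculus is known for one of the highest rates of glucose use in the brain. The genes described here are those whose symbol starts with Nduf, Uqcr or Atp5, or with Cox followed by 4 to 8, together with Sdha, Sdhb, Sdhc, Sdhd, Cyc1 and Cycs. They numbered 86 of the 12393 genes named by a single symbol on the array, and were measured by 160 of 22626 probe sets. The probe set with the highest mean over the 39 arrays stood for each gene. Complex I contributed 33 genes, of which 6 encode core subunits and 27 accessory subunits, and 5 further genes encode its assembly factors. Complex II contributed 4 genes, complex III 9, cytochrome c 1, complex IV 17 and complex V 17. The mitochondrial DNA encodes other subunits, which are not analysed here.

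Inferior colliculi of 39 CBA/CaJ mice were each hybridised as RNA to an Affymetrix MOE430A array. CBA/CaJ is an inbred strain used to study presbycusis, the hearing loss of old age, and the animals were untreated, aged normally and were raised together in a quiet room. Young controls numbered 8, with 4 of each sex. The middle-aged group with good hearing held 10 females and 7 males. Mild presbycusis was represented by 4 females and 5 males, and severe presbycusis by 4 females and 1 male. No ages in months stand in the labels, so hearing loss and age cannot be told apart between presbycusis and young mice. The median intensity of an array lay between 150 and 224. The label of sex was checked against Xist and Eif2s3y. It matched in 38 mice, while middle-aged replicate 4, labelled female, had 373 for Xist and 655 for Eif2s3y, against at least 2541 and at most 10.6 in the other females. In the whole series microglial markers went with hearing status: 8 of 12 were called higher in severe presbycusis than in young controls, and their summed intensity was 6679 to 9473 in young and 12152 to 16851 in severe mice. The summed intensity of 15 neuronal markers was 38525 to 55424 and 35794 to 47165 in the same groups. In a bulk sample, fewer cells of a type cannot be told apart from less RNA in each cell, and the part of the cell types in the results below was not tested.

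All but 3 of the 86 genes had a mean above the dimmest 40 percent of probe sets. The dim ones were Cox7a1 and Cox8b, isoforms of heart and skeletal muscle, and Cox6b2, an isoform of the testis. Promoters of 71 of the 86 genes were found in a RefSeq table of the GRCm38.p6 assembly, each as 300 bases from 250 before to 50 after a start site. The motif GCATGCGC, bound by NRF1, a factor that controls many respiratory genes, occurred on either strand in the promoters of 12 of the 71 genes (16.9%) and of 3.05% of all 27025 genes in the table. The motif CCGGAAG, bound by factors of the ETS family such as GABPA, occurred in 18 of the 71 genes (25.4%) against 9.93%, and at least one of these motifs in 25 genes (35.2%) against 12.4%. The motif AAGATGGC, bound by YY1, occurred in 9 genes (12.7%) against 3.19%, and AAGGTCA, bound by the oestrogen-related receptors, in 7 (9.86%) against 5.38%. CCAAT, bound by NF-Y, was about as common in these genes (40.8%) as in all (41.1%). The genes compared were not matched for the base composition of their promoters, and its part in these shares was not tested. The promoters below belong to the genes on which the results turn. Ndufa8 and Ndufa9 are the genes called in a comparison, Ndufc1 and Atp5j are a pair whose chosen probe sets rose and fell together from mouse to mouse, and Ndufaf5 had the smallest p against young controls. Capitals mark the NRF1, ETS, YY1 and oestrogen-related receptor motifs as spelled above, on either strand.
Ndufa8: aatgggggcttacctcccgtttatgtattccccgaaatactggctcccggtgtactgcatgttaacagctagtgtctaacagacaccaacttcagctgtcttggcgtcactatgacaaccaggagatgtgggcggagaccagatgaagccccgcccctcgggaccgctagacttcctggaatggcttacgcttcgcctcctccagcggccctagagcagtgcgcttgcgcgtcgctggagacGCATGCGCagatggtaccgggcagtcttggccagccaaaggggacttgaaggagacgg
Ndufa9: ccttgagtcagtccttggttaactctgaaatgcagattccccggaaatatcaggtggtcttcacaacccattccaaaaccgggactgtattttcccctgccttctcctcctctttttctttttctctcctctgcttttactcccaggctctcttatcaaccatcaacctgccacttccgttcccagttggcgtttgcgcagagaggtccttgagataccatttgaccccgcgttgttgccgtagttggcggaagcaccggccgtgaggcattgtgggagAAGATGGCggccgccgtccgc
Ndufc1: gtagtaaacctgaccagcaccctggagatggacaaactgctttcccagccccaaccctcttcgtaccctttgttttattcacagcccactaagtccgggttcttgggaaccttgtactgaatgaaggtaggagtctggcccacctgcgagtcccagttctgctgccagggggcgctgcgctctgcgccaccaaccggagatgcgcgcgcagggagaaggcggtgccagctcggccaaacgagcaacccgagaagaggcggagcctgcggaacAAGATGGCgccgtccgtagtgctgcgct
Atp5j: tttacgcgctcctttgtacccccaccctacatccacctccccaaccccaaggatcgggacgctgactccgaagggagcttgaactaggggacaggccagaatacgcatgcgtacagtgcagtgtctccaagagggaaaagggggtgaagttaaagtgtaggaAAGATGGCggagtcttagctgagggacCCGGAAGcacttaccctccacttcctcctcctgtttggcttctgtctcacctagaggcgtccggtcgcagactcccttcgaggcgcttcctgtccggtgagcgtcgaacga
Ndufaf5: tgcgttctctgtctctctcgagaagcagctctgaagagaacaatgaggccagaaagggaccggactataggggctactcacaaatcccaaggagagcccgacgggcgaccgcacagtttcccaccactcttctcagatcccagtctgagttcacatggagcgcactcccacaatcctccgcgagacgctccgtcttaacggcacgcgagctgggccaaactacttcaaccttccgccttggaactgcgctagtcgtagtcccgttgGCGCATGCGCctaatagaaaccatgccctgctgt
In GRCm38.p6 these windows are chr2:36049289-36049588 on the minus strand for Ndufa8, chr6:126849095-126849394 (minus) for Ndufa9, chr3:51408906-51409205 (minus) for Ndufc1, chr16:84834927-84835226 (minus) for Atp5j, and chr2:140170396-140170695 (plus) for Ndufaf5. The Ndufa8 window holds an NRF1 motif, those of Ndufa9 and Ndufc1 a YY1 motif, and that of Atp5j a YY1 and an ETS motif. In the Ndufaf5 window the NRF1 motif is read on both strands of the same 10 bases, so the hits overlap. A second listed window of Atp5j held none of them. A match describes letters in the window and is not a measured binding site.

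In the main fit no difference of these genes between the hearing groups passed the test. By limma with sex as a covariate and Benjamini-Hochberg adjustment over all probe sets, 0 of the 86 genes were called in severe presbycusis against young controls, where 0.53% of all probe sets were called. In mild presbycusis against young controls 0 were called (0.168% of all probe sets), and in middle-aged against young mice 0 (0.00442%). Further counts were 0 for mild against middle-aged mice (0.11%), severe against middle-aged mice (0.486%) and severe against mild presbycusis (0%), and for the F-test over the 4 groups (0.53%). At an unadjusted p under 0.05 limma gave 4 genes in severe against young mice, where 7.66% of all probe sets had such a p, 5 in mild against young mice (6.61%) and 4 in middle-aged against young mice (5.09%). The corresponding counts were 0 in mild against middle-aged mice (4.11%), 2 in severe against middle-aged mice (5.91%), 0 in severe against mild presbycusis (3.73%) and 3 in the F-test (5.89%). The 74 further probe sets of 46 of these genes gave 0 calls in the 6 comparisons. Differences are on the scale of log2(intensity + 16), where dim genes appear to change less than they did.

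**Figure D1:**
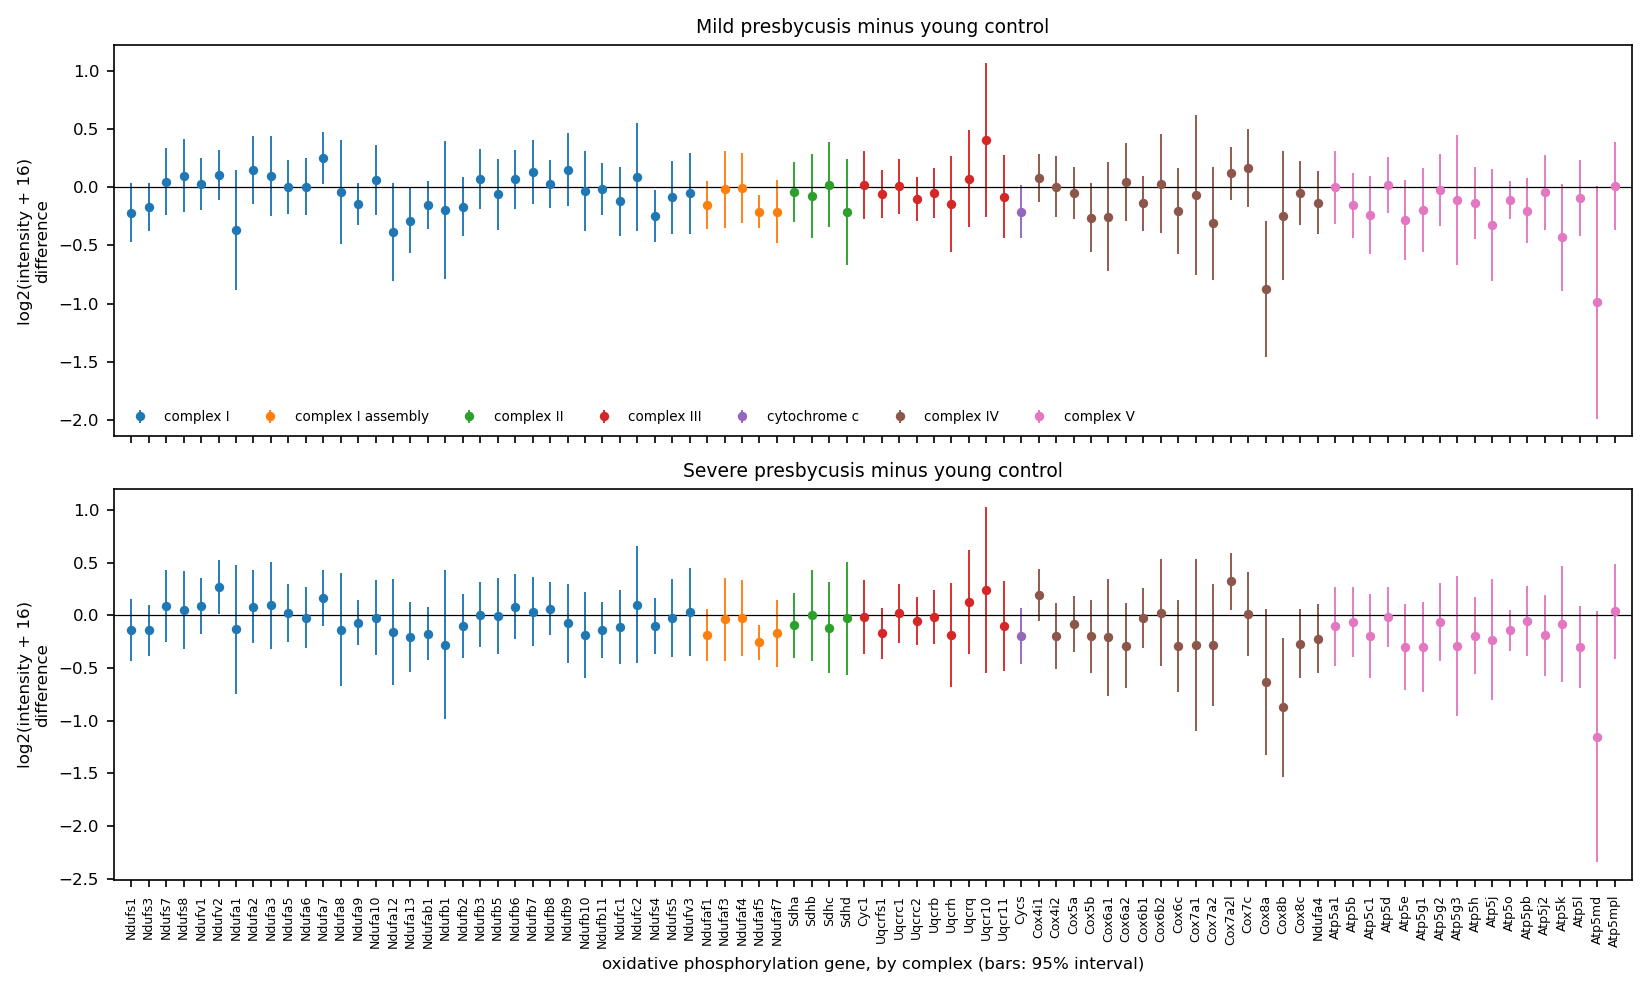
Difference in log2(intensity + 16) of each of the 86 genes (x axis, coloured by complex) in mild and in severe presbycusis against young controls, with 95% intervals from limma. Most points lie within 0.5 of zero, and Atp5md and Cox8a stand lowest in mild mice, with Cox8b beside them in severe mice.

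The intervals bound how large a change could have been. In severe against young mice the 95% interval lay within 0.5 log2 units of zero for 48 of the 86 genes (55.8%), against 36.8% of all probe sets. In mild mice this held for 64 genes (74.4%, against 52.1%), and in middle-aged mice for 69 (80.2%, against 63.4%). This share was unlike between complexes in severe mice. There the bound held for 24 of 33 genes of complex I (72.7%), 7 of 17 of complex V (41.2%) and 4 of 17 of complex IV (23.5%). The share also depends on the standard error, whose median was 0.16 in complex I, 0.19 in complex V and 0.20 in complex IV. The median difference of the 86 genes was -0.10 in severe mice (all probe sets -0.03), with 64 genes below zero (74.4%, against 55.5% of all probe sets). In mild mice it was -0.06 (all probe sets 0.03), with 57 below zero (66.3%, against 42.9%). In middle-aged mice it was -0.01 (all probe sets -0.001), with 45 below zero (52.3%, against 50.3%). The medians are descriptions with no test, and the 3 comparisons share the young controls. Against middle-aged mice the median was -0.07 in severe mice (all probe sets -0.03), with 65 genes below zero (75.6%, against 56.3%). In mild mice it was -0.06 against the middle-aged (all probe sets 0.03), with 60 below zero (69.8%, against 39.8%). Relative to young mice, 40 genes were lower in all 3 other groups, 18 were higher in all 3, and 28 were mixed.

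The complexes did not stand at the same place. Complex V had a median difference of -0.19 in severe mice, with 16 of 17 genes below zero, and of -0.13 in mild mice, with 15 of 17 below zero. Complex IV had -0.21 in severe mice (13 of 17 below zero) and -0.07 in mild mice (11 of 17). Complex I stood near zero, at -0.02 in both groups, with 19 and 17 of 33 genes below zero, and its 6 core subunits had medians of 0.07 and 0.03. Complex III had -0.01 in severe and -0.05 in mild mice, and complex II -0.06 in both. All 5 assembly factors of complex I were below zero in both groups, with medians of -0.17 in severe and -0.16 in mild mice. As 0 genes of any complex passed the test, these are directions of fitted values, with 1 probe set per gene. Of the 74 further probe sets, 22 had the opposite sign to the chosen one in severe against young mice. For 4 of these the gap was over 0.3. Over all probe sets 55.5% were below zero in severe and 42.9% in mild mice. Of the 17 genes of complex V, 9 belong to 1 block that varied together from mouse to mouse, described below. The same block holds 7 of the 17 genes of complex IV, and another block holds 19 of the 33 of complex I. The directions within these complexes are therefore not independent.

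Complex I and its assembly factors are taken first. Ndufaf5, an assembly factor that modifies a core subunit of complex I, had the smallest p in both presbycusis groups. Its intensity was 1577 at the lowest, 1619 at the median and 2163 at the highest in young controls, and 1305, 1525 and 1688 in middle-aged mice. It was 1326, 1447 and 1696 in mild presbycusis, and 1322, 1487, 1441, 1484 and 1423 in the 5 severe mice. All 5 severe mice were below all 8 young mice, while the other groups overlapped with the young. Such a gap was seen for 1 of the 86 genes in that comparison and for 0.398% of all probe sets. Ndufaf5 differed from young controls by -0.25 in severe mice (SE 0.08, limma adjusted p 0.254), by -0.21 in mild mice (SE 0.07, adjusted p 0.402) and by -0.16 in middle-aged mice (SE 0.06, adjusted p 0.927). It also had the smallest spread within groups of all 86 genes, with an SD of 0.12 log2 units. Ndufs4, an accessory subunit whose loss causes complex I deficiency, had 2269, 2504 and 3274 as its lowest, median and highest intensity in young mice and 1627, 2096 and 2769 in middle-aged mice. In mild presbycusis these were 1460, 2380 and 2743, and the severe mice had 3269, 2079, 1913, 2768 and 2205. The groups overlapped, and 16 of 17 middle-aged mice were below the young mean. The difference was -0.28 in middle-aged mice (SE 0.10, adjusted p 0.927) and -0.25 in mild mice (SE 0.11, adjusted p 0.692). The other probe sets of Ndufs4 differed by 0.02 and 0.11 in mild mice. Ndufv2, a core iron-sulfur subunit, had 2504, 3445 and 4300 in young mice and 4602, 3454, 5193, 3945 and 3132 in the severe mice. It differed by 0.27 (SE 0.13, adjusted p 0.613), with 4 of 5 severe mice above the young mean.

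Ndufa7 and Ndufa13 are accessory subunits of complex I. In mild presbycusis Ndufa7 had a smaller p than Ndufs4, and Ndufa13 a larger one. Ndufa7 had 370, 523 and 635 in young mice and 460, 569 and 807 in mild mice. It differed by 0.25 (SE 0.11, limma adjusted p 0.682), with 8 of 9 mild mice above the young mean. Ndufa13 had 2322, 2796 and 3993 in young mice and 1981, 2443 and 2857 in mild mice. It differed by -0.29 (SE 0.14, adjusted p 0.731), and all 9 mild mice were below the young mean although the groups overlapped. Ndufaf1, another assembly factor, differed by -0.20 in middle-aged (SE 0.09) and -0.19 in severe mice (SE 0.12).

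In complex II the flavoprotein Sdha, which oxidises succinate, had 4232, 5465 and 7122 as its lowest, median and highest intensity in young mice and 4811, 6653, 5628, 4152 and 4466 in the severe mice. The groups overlapped, and Sdha differed from young controls by -0.09 (SE 0.15) among severe mice and by -0.04 (SE 0.13) among mild mice. The iron-sulfur subunit Sdhb differed by -0.08 (SE 0.18) in mild mice, the membrane anchor Sdhc by -0.12 (SE 0.21) in severe mice, and the anchor Sdhd by -0.21 in mild mice (SE 0.22) and -0.03 in severe mice (SE 0.27). Each of these was smaller than its standard error, and the sign of all 4 genes turned under at least 1 other processing or without 1 mouse. In complex III the Rieske protein Uqcrfs1 had 2145, 2442 and 3323 in young mice and 1904, 2422, 2252, 2553 and 2031 in severe mice, a difference of -0.17 (SE 0.12). The small subunit Uqcr10 had a wide spread (118 to 491 in young mice, 149 to 757 in mild mice) and differed by 0.40 in mild mice (SE 0.33) and by 0.24 in severe mice (SE 0.39). Uqcrh, the hinge protein, differed by -0.18 (SE 0.24) in severe mice and the core protein Uqcrc2 by -0.10 (SE 0.09) in mild mice. Cycs, the mobile carrier cytochrome c, had 6279, 7694 and 8866 in young mice, 5229, 6422 and 8058 in mild mice, and 7340, 8360, 6737, 5890 and 5801 in severe mice. It differed by -0.21 (SE 0.11, limma adjusted p 0.772) in mild and -0.19 (SE 0.13, adjusted p 0.798) in severe mice, and its other 2 probe sets differed by -0.41 (SE 0.14) and -0.23 (SE 0.20) in severe mice.

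Cox8a, the general isoform of subunit 8 of complex IV, had the lowest difference of a bright gene of that complex in both presbycusis groups. Its lowest, median and highest intensity was 1570, 3213 and 4347 in young mice, 1153, 2048 and 3521 in middle-aged mice and 357, 1926 and 2997 in mild presbycusis. The severe mice had 2533, 2848, 2198, 1336 and 1608. All 5 severe, 8 of 9 mild and 16 of 17 middle-aged mice were below the young mean, and every group overlapped with the young. The difference was -0.87 in mild (SE 0.29, limma adjusted p 0.408), -0.63 in severe (SE 0.34, adjusted p 0.711) and -0.57 in middle-aged mice (SE 0.25, adjusted p 0.950). Its other 2 probe sets had the same sign, at -0.72 and -0.26 in mild and -0.40 and -0.66 in severe mice. Cox7a2l, a factor that joins complexes III and IV into supercomplexes, had 2340, 2959 and 3707 in young mice and 4425, 3590, 3360, 4051 and 2875 in severe mice. It differed by 0.32 (SE 0.13, adjusted p 0.522), while its other probe sets differed by 0.06 and -0.25. Cox5b differed by -0.26 (SE 0.14) in mild mice, and its 5 other probe sets disagreed with it in part: in severe mice the chosen probe set gave -0.20 and others up to 0.13.

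Subunits with tissue isoforms were compared within each gene, since levels of different probe sets cannot be ranked. Cox4i1, the general isoform of subunit 4, differed by 0.20 in severe mice (SE 0.12) and its lung isoform Cox4i2 by -0.20 (SE 0.16). Cox6a1, the liver-type isoform, differed by -0.21 (SE 0.27) and the muscle isoform Cox6a2 by -0.29 (SE 0.20). The general isoform Cox6b1 differed by -0.02 (SE 0.14) and the testis isoform Cox6b2 by 0.02 (SE 0.25). Cox7a2, the liver-type isoform of subunit 7a, differed by -0.28 (SE 0.29) and its muscle isoform Cox7a1 by -0.28 (SE 0.41). Cox8b, the muscle isoform of subunit 8, was dim, with 16.4, 46.3 and 123 in young mice and 26.8, 12.8, 16.4, 13 and 24 in the severe mice. Its difference of -0.87 (SE 0.33, limma adjusted p 0.397) lies close to the lower end of the array's range.

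Atp5md, which encodes a small protein that joins ATP synthase into dimers, was the most variable of the 86 genes. Its intensity was 755 at the lowest, 2459 at the median and 4703 at the highest in young mice, 260, 1339 and 4334 in middle-aged mice and 166, 1083 and 4152 in mild presbycusis. The severe mice had 1715, 1279, 623, 998 and 938. The ranges overlapped widely, and all 5 severe mice were below the young mean. It differed by -1.15 in severe (SE 0.59, limma adjusted p 0.670) and -0.99 in mild mice (SE 0.49, adjusted p 0.755). Its SD within groups was 1.09 log2 units, against a median of 0.31 over the 86 genes. The median was 0.34 over other probe sets between the dimmest and the brightest of these genes. The catalytic subunit Atp5b had 5117, 5982 and 7950 in young mice and 6233, 7500, 6170, 5555 and 4587 in severe mice, and differed by -0.06 (SE 0.16). Atp5e of the central stalk and Atp5l of the membrane part each differed by -0.30 in severe mice (SE 0.20 and 0.19), with all 5 severe mice below the young mean. Atp5k, subunit e of the membrane part, differed by -0.43 in mild mice (SE 0.23, adjusted p 0.775) and by -0.09 in severe mice (SE 0.27).

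**Figure D2:**
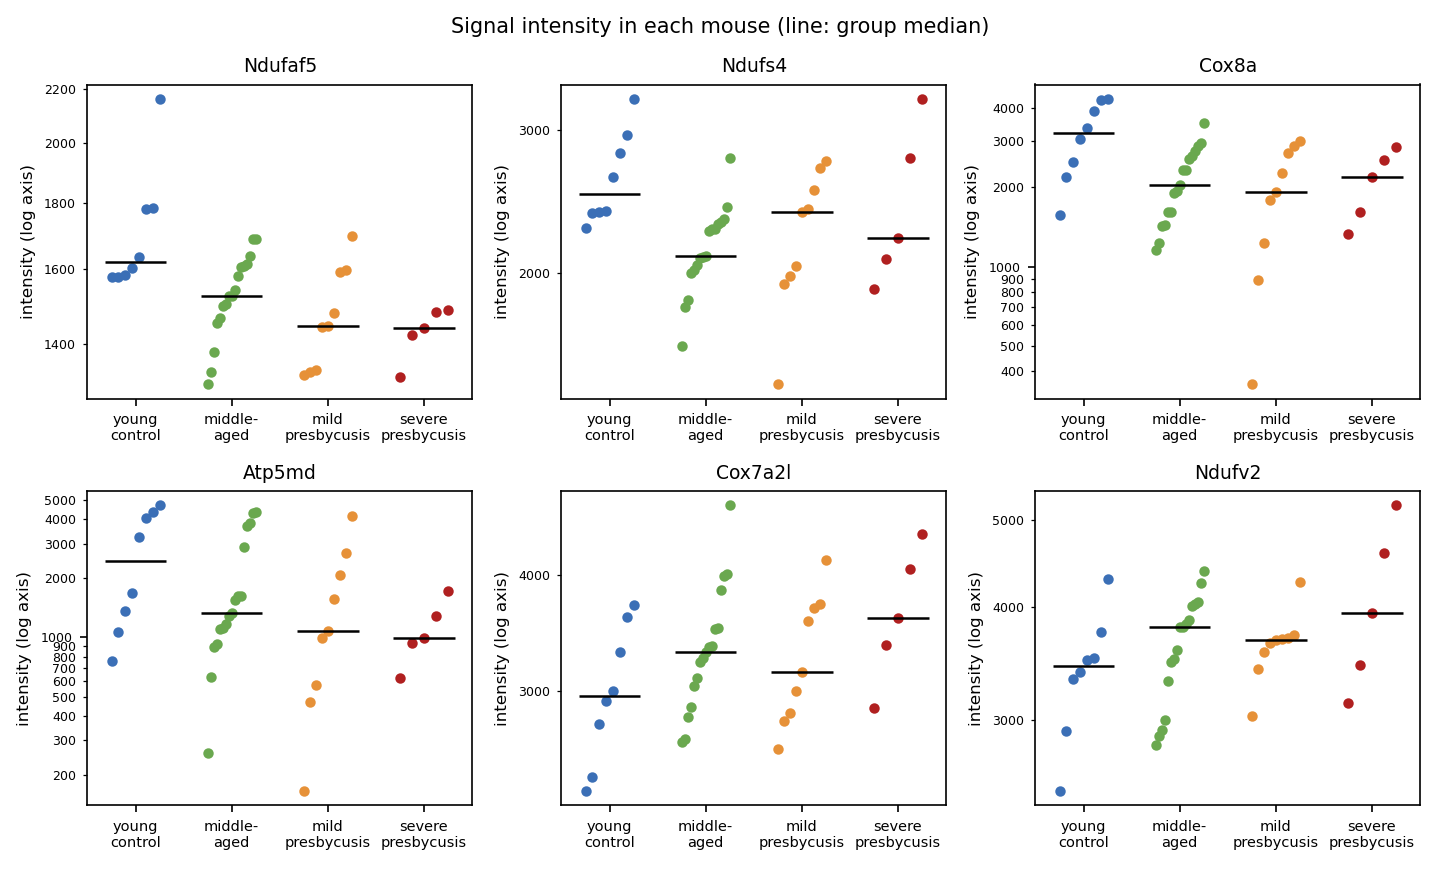
Signal intensity (log axis) of 6 genes in each of the 39 mice by group, where each point is a mouse and each line a group median. The severe mice lie below all young mice for Ndufaf5 and overlap with them for the other genes, and Atp5md spans 166 to 4703.

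Other genes of mitochondrial energy use were read from lists chosen with earlier results of these data known. Of 29 further assembly factors of the respiratory chain, 0 were called in severe against young mice (median difference -0.01), and of 19 regulators of mitochondrial biogenesis 0 were called (median -0.02). The citric acid cycle and pyruvate dehydrogenase (17 genes) had 0 calls and a median of -0.05, and 21 carriers, channels and electron entry proteins had 0 calls and a median of -0.11. Of 14 genes of glycolysis, which supplies pyruvate to the mitochondrion, 0 were called and the median was -0.18. In this list 11 were below zero (78.6%, against 55.5% of all probe sets). Pfkp, a phosphofructokinase, differed by -0.28 (SE 0.10, limma adjusted p 0.392) and the aldolase Aldoa by -0.30 (SE 0.13, adjusted p 0.543). In mild mice the glycolysis median was also -0.18, with 0 calls. The neuronal markers had a median of -0.21 in severe and -0.05 in mild mice, with 0 of 15 called.

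From mouse to mouse the chosen probe sets of the 86 genes moved together more than other probe sets did. With group means removed, the median correlation over 3655 pairs was 0.09, and 19.8% of pairs were above 0.5. For pairs of 19308 other probe sets these were 0.03 and 1.72%. Those probe sets lay between the dimmest and the brightest of the 86 genes, which takes in most of the 22626 tested. They were not matched for brightness, and its part in the contrast was not tested. For the 86 genes the median was 0.07 between complexes and 0.18 within a complex, where 528 of 852 pairs were of complex I (0.25). It was 0.30 within complex III, 0.13 within complex V, 0.04 within complex IV and -0.09 within complex II, and the arrays share their scaling. Grouping by average linkage of 1 minus r, with a cutoff of 0.7, gave 2 large blocks of 36 and 25 genes, and 25 genes in neither. The larger block, block 1, held 19 genes of complex I, such as Ndufb8, Ndufb2 and Ndufa13, 4 of complex III with Cyc1, 4 of complex IV and 7 of complex V. Its median r was 0.57. Block 2 held 5 genes of complex I, 7 of complex IV, 9 of complex V, Sdha and Cycs among others, and its median r was 0.69. It contained the closest pairs, Ndufc1 with Atp5c1 (r = 0.97), Ndufc1 with Atp5j (0.96) and Atp5c1 with Atp5j (0.96), which encode an accessory subunit of complex I, the rotor shaft and the coupling factor of ATP synthase. These values hold for the chosen probe sets. Another probe set of Ndufc1 had r = 0.05 with the chosen one, and another of Atp5c1 had 0.07. Over the 74 further probe sets of 46 genes, the median r with the chosen one was 0.35, and 36.5% were above 0.5.

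**Figure D3:**
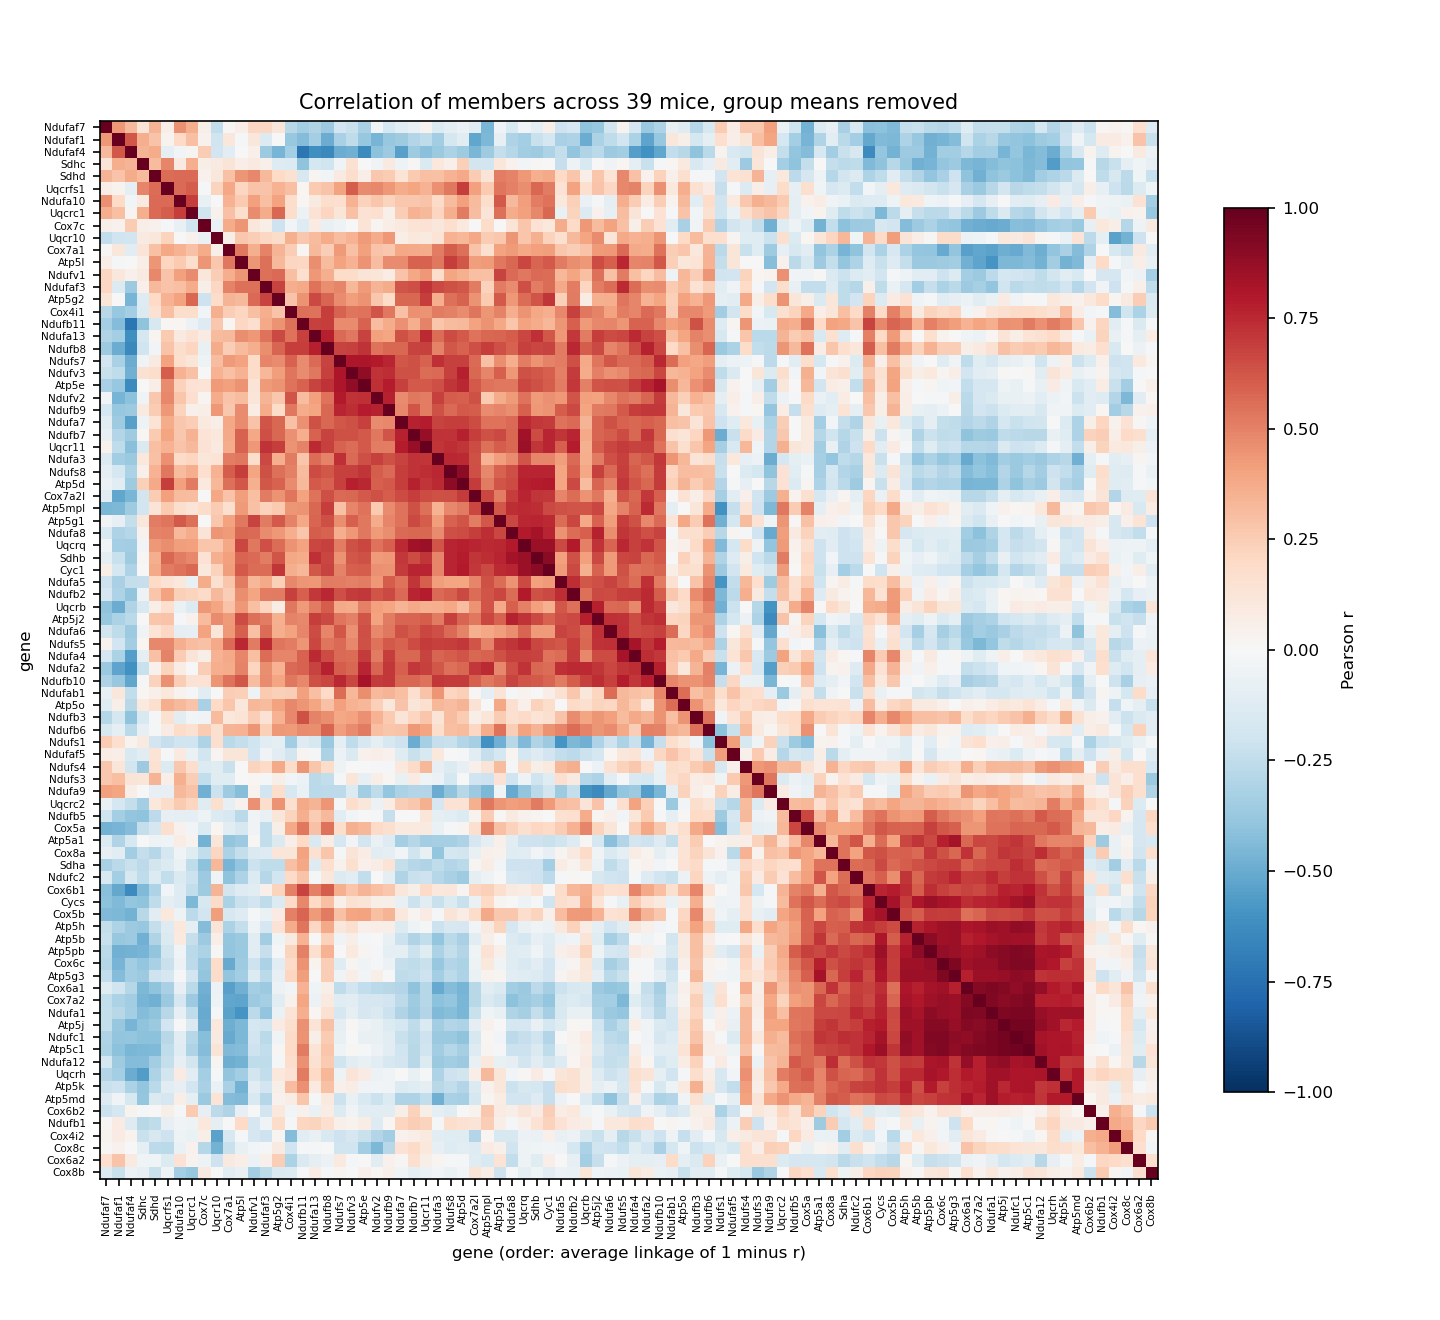
Pearson r between the 86 genes across 39 mice after group means were removed, ordered by average linkage. The square at the upper left of centre is block 1 (36 genes), and the darker square at the lower right is block 2 (25 genes, median r 0.69).

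The grouping puts genes of high r together, so a lower r between the blocks than within them is given in advance. The median r over the 900 pairs between the blocks was -0.06 (-0.59 to 0.68). The block medians had r = -0.07 (rho -0.05) over the 39 mice. Block medians ranged from -0.38 to 0.44 log2 units over mice in block 1 and from -0.53 to 0.74 in block 2. RNA quality went with block 2: its median had r = 0.59 (rho 0.67) with the log2 ratio of 3′ to 5′ control signal, a measure of shortened RNA, and r = 0.68 without the 2 mice farthest from the middle of that ratio. For block 1 the r was -0.34 (rho -0.29) and -0.19 without the 2 farthest mice, so it rests on them in part. In the arrays without a name suffix the values were 0.58 and -0.33. These are given with no test, because the blocks were drawn from the same values. Mild replicates 6 and 8, the lowest and the highest mouse in block 2, had summed neuronal intensities of 34338 and 59219. The part of neuronal signal in block 2 was not tested. After the ratio was also removed, the median r was 0.57 within block 1, 0.61 within block 2 and 0.09 between them. After sex and its product with group were removed in place of the ratio, these were 0.53, 0.68 and 0.12. In severe presbycusis 24 of the 25 genes of block 2 were below the young controls (median difference -0.15), and 21 of the 36 of block 1 (median -0.01). Of all probe sets 55.5% were below zero in that comparison, and the genes of a block are not independent. The 3′ to 5′ ratio was 2.45 ± 0.24 (log2, SD, n = 8) in young and 2.29 ± 0.41 (n = 5) in severe mice, and its part in that difference was not tested. The assembly factor Ndufaf4 had the lowest r with the median of the other genes, at -0.67, and -0.21 once each array was centred on its median.

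**Figure D4:**
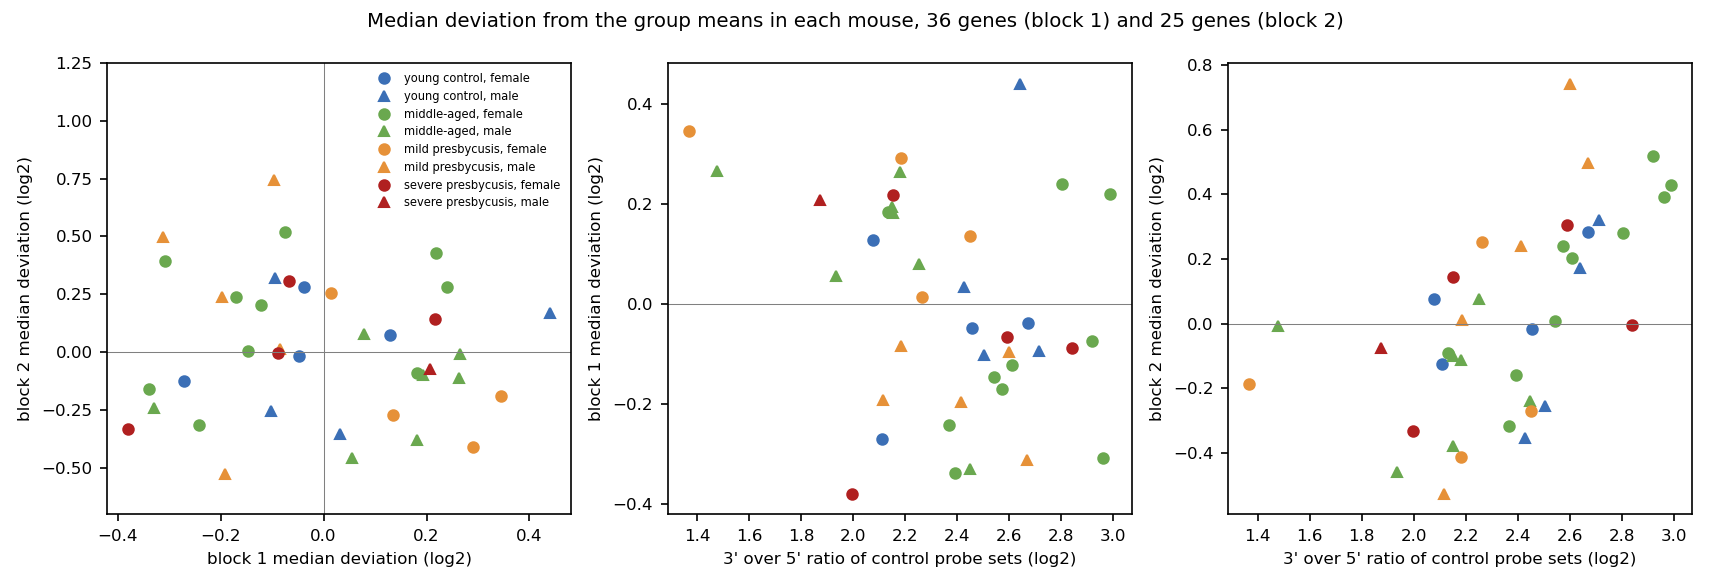
Median deviation from the group means (log2) of block 1 and block 2 in each mouse, against each other (left) and against the log2 ratio of 3′ to 5′ control signal (middle and right), where colour is the group and shape the sex. Block 2 rises with the ratio (r = 0.59 with group means removed). The block medians have r = -0.07 with each other, where the grouping itself favours a low r.

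For 2 of the 86 genes the difference between mild presbycusis and young controls was called as unlike in females and males, and both calls were lost under several other settings. In that sex by group interaction by limma, 1.23% of all probe sets were called, and 27 of the 86 genes (31.4%) had an unadjusted p under 0.05, against 15.4% of all probe sets. Of the 27, 20 had fitted values higher in females and lower in males with mild presbycusis than in young mice of the same sex, and 7 the reverse. Opposite signs are nearly given by such a p: they were found in 1738 and 1525 of the 3476 probe sets with one over the whole array. For middle-aged against young mice, 0 genes were called (0% of all probe sets) and 6 had such a p (7.27% of all probe sets). Male minus female over all groups gave 0 calls (0.0486% of all probe sets) and 0 genes with an unadjusted p under 0.05 (3.73% of all probe sets). The interaction was not tested in severe presbycusis, which holds 1 male.

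Ndufa9, an accessory subunit near the junction of the arms of complex I, was high in young females. Its intensity was 5678, 6202, 6089 and 5328 in the 4 young females and 5116, 4436, 4204 and 4712 in the 4 young males. In mild presbycusis the 4 females had 4532, 4102, 4105 and 3999, and the 5 males 5023, 4392, 5776, 6127 and 4621. All mild females were below all young females, while the males of these groups overlapped. How many of all probe sets had such a gap was not counted, and Ndufa9 was picked by the interaction on these same values. Mild minus young was -0.47 in females (SE 0.11) and 0.16 in males (SE 0.10), and the difference between the sexes was 0.63 (SE 0.15, limma adjusted p 0.0226). Middle-aged mice lay between 4260 and 5352, and severe mice between 4636 and 5224.

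Ndufa8, another accessory subunit, in the membrane arm of complex I, went the other way. It had 2024, 2086, 2121 and 1386 in the young females and 2052, 2428, 3159 and 2552 in the young males. The mild females had 3690, 2798, 2904 and 3009, and the mild males 2210, 1428, 796, 1636 and 2319. All mild females were above all young females and all mild males. Such gaps were not counted over all probe sets here either, and Ndufa8 was picked in the same way. Mild minus young was 0.71 in females (SE 0.25) and -0.68 in males (SE 0.24), a difference of -1.39 between the sexes (SE 0.35, limma adjusted p 0.0347). The array measures each of these genes with 1 probe set.

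**Figure D5:**
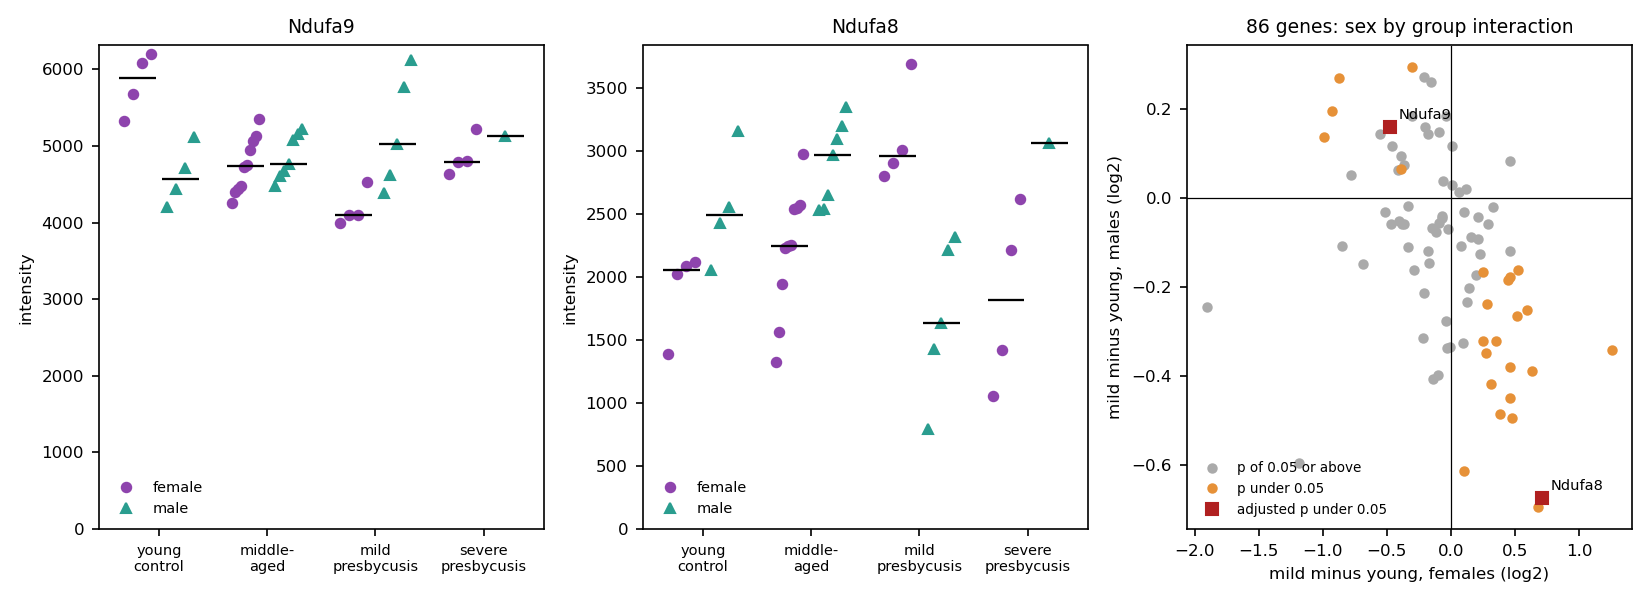
Intensity of Ndufa9 and Ndufa8 in each mouse by group and sex (line: median), and, at the right, mild minus young (log2) in females against males for the 86 genes. The 2 called genes lie in opposite corners, and most genes with an unadjusted p under 0.05 lie at the lower right (20 of 27).

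The next genes by p were Atp5j2, subunit f of ATP synthase (-0.97, SE 0.28, limma adjusted p 0.0645), Ndufs5 of complex I (-0.87, SE 0.27, adjusted p 0.0863) and Cox7a2l (-0.64, SE 0.20, adjusted p 0.0918). Of the 74 other probe sets of these genes, 3 were called and 30 (40.5%) had an unadjusted p under 0.05. The called ones belonged to Ndufab1, the mitochondrial acyl carrier protein (-1.71, SE 0.36, adjusted p 0.00908), to Atp5o of the peripheral stalk (-1.13, SE 0.25, adjusted p 0.0128) and to Atp5j2 (-1.35, SE 0.30, adjusted p 0.0129). The probe sets disagreed for Ndufab1 and Atp5o, whose chosen probe sets had interactions of 0.02 (SE 0.21) and 0.08 (SE 0.16). The sign of the interaction differed between the blocks. It was below zero for 35 of the 36 genes of block 1, with 18 of them at an unadjusted p under 0.05, and above zero for 24 of the 25 of block 2, with 4 at that p. The blocks and the interaction rest on the same mice, so this is a description. In mild mice the block 1 median, as a deviation from the group mean, ran from 0.01 to 0.34 in the females and from -0.31 to -0.09 in the males. The block 2 median ran from -0.41 to 0.25 in the females and from -0.53 to 0.74 in the males, so the sexes overlapped there. Over the other lists, 8 of 29 assembly factors (27.6%), 5 of 19 biogenesis regulators (26.3%), 4 of 17 citric acid cycle genes (23.5%) 5 of 21 carriers, channels and electron entry proteins (23.8%) and 2 of 14 glycolysis genes (14.3%) had an unadjusted p under 0.05, against 15.4% of all probe sets, with 0 called in each. Of the cell type markers, 3 of 9 astrocyte genes (33.3%) and 3 of 12 microglial genes (25%) had such a p, with 1 called in each list, and 3 of 15 neuronal genes (20%) with 0 called. Their part in the interaction of the 86 genes was not tested.

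These calls depended on few arrays. Of the mild mice, 2 carried a suffix in the array name, both males, and the young control with a suffix was a female. With the suffix as a covariate 0 genes were called, and 26 of 86 had an unadjusted p under 0.05 (12.6% of all probe sets). In the arrays without a suffix alone 0 were called and 16 had such a p (11.1% of all probe sets). Both calls were lost without young replicates 5 or 6 or mild replicates 5, 7 or 8, each left out alone, and only Ndufa9 was called without young replicates 7 or 8 or mild replicates 1 or 4. Over all settings tried the interaction ran from -1.53 to -1.14 for Ndufa8 and from 0.38 to 0.69 for Ndufa9. The 3′ to 5′ ratio was 2.33 in young females, 2.57 in young males, 2.07 in mild females and 2.40 in mild males (log2, means of 4, 4, 4 and 5 mice), and with it as a covariate Ndufa9 and Ndufa8 were both called, as they were without middle-aged replicate 4.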

How the data were processed

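Total RNA of each inferior colliculus was hybridised to its own MOE430A array. Groups and sexes came from the labels. The deposited values are intensities on a linear scale; no source used here names the algorithm, and each array had a mean of 498 to 500 after 2 percent was trimmed at each end. Further deposited sheets hold 288 per-sample columns for probe sets picked by the authors and were not used.

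After 64 control probe sets were removed from 22690, log2(intensity + 16) was fitted in limma 3.58.1 (R 4.3.3) with group, sex and a variance trend (34 residual degrees of freedom). Tests were 2-sided, with Benjamini-Hochberg adjustment over 22626 probe sets and a threshold of 0.05. A second model added the product of group and sex. Correlations used deviations from group means.

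The members and lists were chosen with earlier results of these data known. Genes given with values are those called, the 3 with the smallest p in each complex in mild or severe against young mice, isoform pairs, genes whose probe sets disagreed, and leading genes of other lists. Ndufa13, Ndufaf4, Atp5b, Atp5j2, Ndufs5, the closest pairs and the block genes were named after their values were seen. The fit was tested on simulated data. Alternatives varied normalization, pseudocount, filter, variance model, probe sets, sex, RNA quality, array names and left-out mice.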

Additional observations from a re-analysis of the deposited data

Results flagged for a closer look

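Of 99 groups of 4 to 10 mice that were checked for a stray mouse over the genes given with values, 1 mouse stood apart, where chance gives about 1 in 20 groups. Young replicate 3 had a log2 level of 11.09 for Ndufaf5, above the other 7 young mice (10.64 to 10.81), by 0.612 of the whole range. The sexes differed in mild minus young for Ndufa8 (-1.39, males minus females) and Ndufa9 (0.63), both past the adjusted threshold in the interaction test by limma.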

How the results depend on the processing

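No paired analysis was possible because mouse numbers are unique and replicate numbers only follow the order of deposit. Against young controls, the median difference of the 86 genes stayed below 0 in all 31 settings for severe mice (-0.15 to -0.03) and all 37 for mild mice (-0.12 to -0.03), and in 24 of 28 for middle-aged mice (-0.04 to 0.02). Centring each array raised the median r over member pairs to 0.22. The cause of the changes below was not tested, and the number of severe mice (5) limits what can be seen.

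The count called in the sex by group interaction was 4 with quantile normalization or with plain probe sets only, 1 with centred arrays or no variance trend, and 0 with array weights, the name suffix as a covariate or only arrays without a suffix. Leaving out single mice gave 0 to 3. The mean over the probe sets of a gene gave 1 call in severe against young mice (Ndufab1). Females alone gave 1 call in mild against young mice (Ndufa9) and 3 in mild against middle-aged mice (Atp5k, Cox7a2 and Ndufa1). In the fit with the product of group and sex, mild against young females gave calls for 606 of 22626 probe sets and 1 of the 86 genes. Apart from that fit, the share of all probe sets is not given for the settings of this paragraph. The counts therefore show neither an excess nor its absence.

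In mild against young mice, signs turned for Sdha with quantile normalization (0.059) and the RNA quality covariate (0.027), for Uqcrc2 with quantile normalization (0.043), for Uqcr10 with plain probe sets (-0.17) and in males (-0.34), for Cox5b with plain probe sets (0.027), for Sdhd with the mean over probe sets (0.048) and without suffixed arrays (0.12), for Sdhb in females (0.28) and without suffixed arrays (0.053), for Atp5e in females (0.10), and in males for Uqcrh (0.12) and Cox7a2 (0.20). In severe against young mice they turned for Sdhd with centred arrays (0.0063), array weights (0.036), the mean over probe sets (0.073), without 3 arrays of high cerebellar signal (0.011) and with the suffix covariate (0.078), and for Sdha in females (0.084). Without single mice, Sdha ran from -0.10 to 0.016 and Sdhb from -0.17 to 0.013 in mild mice, and Sdhc from -0.23 to 0.074 and Sdhd from -0.18 to 0.067 in severe mice.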
